A study of Mus musculus with 2 samples.

Results

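Small nucleolar RNAs (snoRNAs) and small Cajal body RNAs (scaRNAs) were described in common myeloid progenitors, bone marrow cells from which the granulocyte, monocyte, megakaryocyte and red cell lines descend. The genes were chosen by 2 measured values, their expected counts: a gene model of biotype snoRNA or scaRNA in GENCODE M21 was kept when it had at least 10 expected counts in each library. An expected count is an estimated number of reads per gene that need not be whole. This gave 82 genes, called members here, of 1525 snoRNA and scaRNA models in the deposited tables, of 1558 such models in M21 and of 43346 Ensembl genes in all. The counts are therefore a description of the genes kept and no test was made on them.

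There was 1 group with 2 libraries, called biological replicates 1 and 2. Both were common myeloid progenitors of C57BL/6J male adults, 5 to 6 weeks old, carried the same donor label, and had no treatment or altered allele in the labels. The ScriptSeq kit was used on 100 ng of total RNA depleted of ribosomal RNA, with stated size ranges of 200 to 1000 for replicate 1 and 187 to 1606 for replicate 2. No unit was given for these ranges. The spread between the libraries may be partly technical. With a single condition, no p-value was computed.

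The libraries held 28158803 and 84041054 expected counts over Ensembl genes, so replicate 2 was 2.98 times deeper. The upper limit that a count of 0 allows, 3 counts, corresponds to 0.107 counts per 1000000 (CPM) in the shallower library and to 0.0357 in the deeper one, for counting error only. The labelled cell type was checked on its markers. Kit, Cd34, Fcgr3, Fcgr2b, Mpo and Gata2 were all at 1 TPM (a level scaled to effective length that sums to 1000000 per library) or more in both libraries, with Cd34 at 125 and 121 TPM and Mpo at 314 and 399 TPM. Pax5, Ebf1, Cd3e and Cd8a, which mark B and T cells, had 0 counts in both. Ly6a and Il7r, which sorted common myeloid progenitors lack, were under 1 TPM in both libraries. Il7r was close to that level in replicate 1, with 218 counts or 0.96 TPM. In replicate 2 it had 76 counts, or 0.13 TPM.

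Box C/D snoRNAs guide 2′-O-methylation and box H/ACA snoRNAs guide pseudouridylation of ribosomal RNA, each as a particle with its own core proteins. A few, such as U3, U8, U14, U17 and U22, take part in the cleavage of the ribosomal RNA precursor. The scaRNAs guide the same modifications on spliceosomal RNAs in Cajal bodies. Most mammalian snoRNAs are cut from introns of host genes after splicing.

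The member that carried the most reads is shown first, since it set much of the level of the whole class. Gm22422 (ENSMUSG00000064994.1) lies at chr16:56035753-56035887 on the minus strand of GRCm38, inside an intron of Trmt10c, which encodes a subunit of mitochondrial RNase P. It had no family name in the annotation. The sequences printed are those of GENCODE M21 transcripts, 5′ to 3′, and the capitals mark the ACA that ends the H/ACA class.
Gm22422: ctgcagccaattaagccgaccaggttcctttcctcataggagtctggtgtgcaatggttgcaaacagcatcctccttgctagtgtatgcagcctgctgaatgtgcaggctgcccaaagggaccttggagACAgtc

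Gm22422 had 34334 expected counts in replicate 1 and 30337 in replicate 2, which is 1219 and 361 CPM. It was the member with the most counts in each library, and its counts scaled by TMM in edgeR were 3.37 times higher in replicate 1. Gm23245, inside the chaperonin gene Cct6a, had 13051 and 20605 counts, or 463 and 245 CPM. Gm23262, inside Eif4g2, which encodes a translation initiation factor, had 10797 and 11366 counts, or 383 and 135 CPM. All 3 were higher in CPM in replicate 1. In bulk RNA, fewer cells with an RNA and less of it per cell cannot be told apart. Together with Scarna10 and Scarna2 these genes held 67.1% of the members' counts in replicate 1 and 48.8% in replicate 2. Next by mean CPM came Snora74a, known as U19, with 2559 and 11117 counts, and Gm23442 in Prrc2a with 2605 and 9538 counts. By mean TPM Gm23442 ranked 3, at 9551 and 10025 TPM, and its libraries differed little. Gm24888, inside the ribosomal protein gene Rpl27a, had 745 and 2445 counts and 3239 and 3030 TPM. From Gm22422 down, the members' mean CPM spanned 790 to 0.312, and the lowest counts were 11.4 in replicate 1 and 17.5 in replicate 2.

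**Figure D1:**
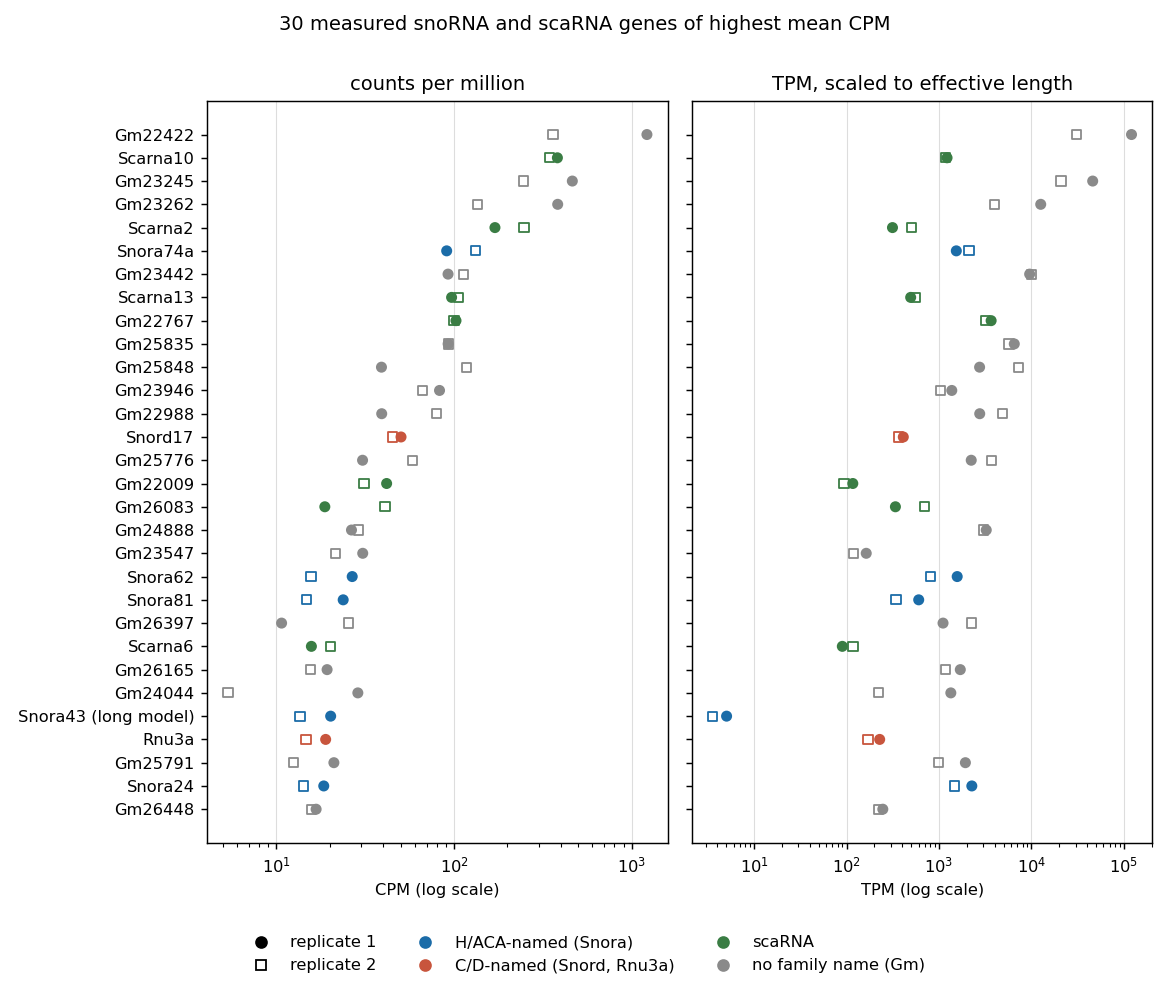
CPM (left) and TPM (right), both on log scales, of the 30 members of highest mean CPM, with filled circles for replicate 1, open squares for replicate 2 and colour for the named type. Gm22422 is highest in both panels, while Scarna10 and Scarna2 rank 2 and 5 by mean CPM but 19 and 39 by mean TPM.

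On the TPM scale the members looked far more abundant than on the count scale. They held 0.390% of expected counts in replicate 1 (95% Wilson interval 0.388 to 0.392) and 0.273% in replicate 2 (0.272 to 0.274), a mean of 0.332% ± 0.0828 (SD, n = 2). They held 24.5% and 12.3% of all TPM, a mean of 18.4% ± 8.64 (SD, n = 2). Gm22422 alone accounted for 12.1% and 3.07%, and the other members for 12.4% and 9.25%. By TPM, 27 members stood among the 100 highest genes in each library. By CPM per kb of full length, a scale that leaves out effective length, 4 members did so in each library and all members held 2.82% and 1.78% of the sum.

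The length used is the deposited effective length, the length left for read starts after the fragment length is taken into account. It was 3.73 nt in replicate 1 and 5.08 nt in replicate 2 for a model of 135 nt, 26.1 and 31.9 nt for one of 205 nt, and 200 and 213 nt for one of 414 nt. A single count on a model of 135 nt was worth 3.52 TPM in replicate 1 and 1.01 TPM in replicate 2, against 0.0654 and 0.0241 TPM on one of 414 nt. Models of 109 nt or less had an effective length of 0 in replicate 1, and those of 104 nt or less in replicate 2. Their TPM was listed at 0 whatever their counts.

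**Figure D2:**
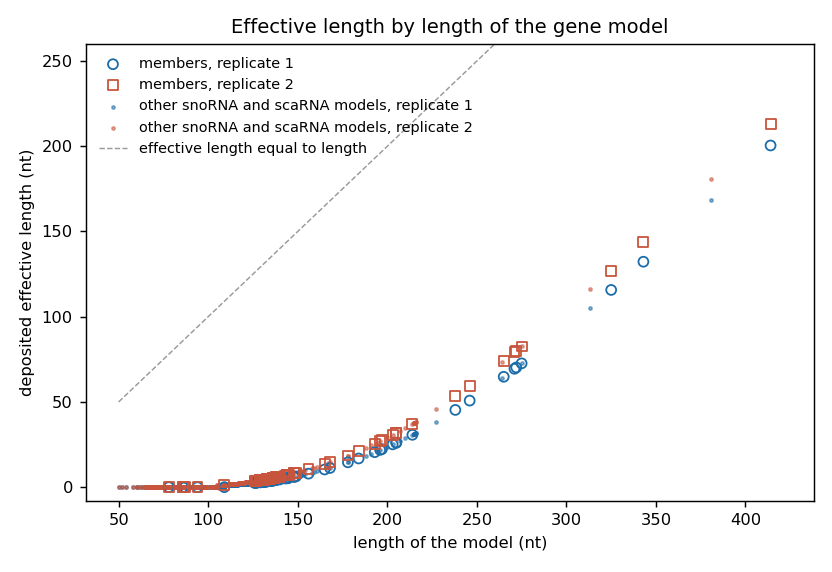
Deposited effective length (nt) against model length (nt) for members (open symbols) and the other snoRNA and scaRNA models under 450 nt (dots), with replicate 1 in blue and replicate 2 in red. Models of 104 nt or less sit at 0 in both libraries, and every point lies well below the dashed line of equal lengths.

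For 5 members this left a TPM of 0 in both libraries beside real counts, and all 5 are C/D-named. Snord21, in an intron of the ribosomal protein gene Rpl5, had 142 and 111 counts on a model of 94 nt. Snord60, inside Rab26os, had 46 and 149 counts on 78 nt. Snord14c and Snord14d, copies of U14 in the chaperone gene Hspa8, had 21.8 and 18.9 counts and 31.0 and 17.5 counts. Snord87, inside Snhg6, had 13 and 44 counts. Gm23734, of 109 nt, had 518 and 267 counts, with a TPM of 0 in replicate 1 and of 1008 in replicate 2. These TPM values of 0 do not show an absence of reads.

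Length went with the share measured between the H/ACA-named and C/D-named models, but not across all named types. Of the H/ACA-named models (Snora), 23 of 41 were members, or 56.1%. Of the C/D-named models (Snord and Rnu3), 10 of 102 were members, or 9.80%, and 86.3% of all C/D-named models had an effective length of 0 in replicate 1 and 85.3% in replicate 2. Of the scaRNA models, including Scarna10, which M21 classes as a snoRNA, 10 of 43 were members. Of the models with only a Gm number, 39 of 1339 were members, or 2.91%. The median length was 133 nt over all H/ACA-named models and 85.5 nt over all C/D-named ones. It was 139 nt over all scaRNA models and 128 nt over those with only a Gm number. The part of read length, fragment size and RNA level in these shares was not tested.

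Apart from 1 model described below, members were 78 to 414 nt long with a median of 136 nt, and 54 of them were 120 to 150 nt long. The C/D-named members had a median of 110 nt and the scaRNAs of 268 nt. In CPM per kb of full length the median was 30.8 ± 7.04 for H/ACA-named members, 32.2 ± 7.65 for C/D-named members, 130 ± 29.6 for scaRNAs and 55.8 ± 1.89 for members with only a Gm number (SD over 2 libraries). The H/ACA-named and C/D-named medians differed by less than their spread on this scale. The median TPM was 229 ± 63.8 for H/ACA-named members, 427 ± 144 for scaRNAs and 454 ± 57.1 for Gm members. Of the 10 C/D-named members, 5 were at a TPM of 0 through their effective length, so the median TPM of that type, 91.2 ± 8.65, lies midway between 0 and the lowest value above 0 and is no measure of level. The other 5 were at 195 to 1476 TPM in replicate 1 and 170 to 672 TPM in replicate 2. The Gm members held 68.7% of the members' counts in replicate 1 and 53.8% in replicate 2.

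The end sequences placed many of these unnamed genes. An ACA followed by 3 bases at the 3′ end of the transcribed strand was found in 50 of 82 members, against 284 of all 1525 models, or 18.6%. TGATGA within the first 20 bases together with CTGA within the last 20, the letters of boxes C and D, was found in 15 members and in 312 of all models, or 20.5%. No member had both, and 17 had neither. Of the 39 Gm members, 29 had the ACA end, 3 had boxes C and D and 7 had neither. All 17 H/ACA-named members with a hit had the ACA end, and all 8 C/D-named members with a hit had boxes C and D. A match is a description of these letters and shows no function.

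The snoRNAs listed for pre-ribosomal RNA processing differed widely in CPM, which is not scaled to length. Snord17, of 238 nt, was the highest of them on that scale, at a mean of 47.6 CPM, and ranked 14 among members. The U14 copies Snord14d and Snord14c, of 86 nt, ranked 75 and 79 by mean CPM. By mean TPM Snord17 ranked 40 and Snord22, of 126 nt, ranked 22. Snord22 was at 1476 and 672 TPM, against 410 and 363 TPM for Snord17. The U14 models Snord14a and Snord14e had 0 counts in both libraries. Rnu3a, a U3 copy at chr10:40258467-40258680 with no host gene, had 533 and 1232 counts, or 228 and 170 TPM. Snora73a and Snora73b, known as U17, lie in the host gene Snhg3, which overlaps Rcc1. Snora73a had 302 and 658 counts and Snora73b 115 and 234, so Snora73a was 2.63 and 2.81 times higher in CPM in the 2 libraries. Snord22, known as U22 and inside Snhg1, had 283 and 455 counts. Snord118, known as U8, has a model of 135 nt with an effective length above 0 in both libraries and had 0 counts in both, which allows up to 3 counts each. Snord13 had 7 and 0 counts, and Snord83b had 0 in both.

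The U3 genes show how near-identical copies decide membership. Rnu3b1 and Rnu3b3 have identical sequences of 216 nt, and Rnu3b2 and Rnu3b4 have identical sequences of 215 nt. All 4 lie inside Tex14 on chromosome 11. The pairs differ by 1 added base at the 3′ end, in capitals here.
Rnu3b1: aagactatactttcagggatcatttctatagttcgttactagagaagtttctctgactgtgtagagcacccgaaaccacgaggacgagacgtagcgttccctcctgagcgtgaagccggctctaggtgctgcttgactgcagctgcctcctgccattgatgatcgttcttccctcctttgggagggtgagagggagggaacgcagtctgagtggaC
Rnu3b2: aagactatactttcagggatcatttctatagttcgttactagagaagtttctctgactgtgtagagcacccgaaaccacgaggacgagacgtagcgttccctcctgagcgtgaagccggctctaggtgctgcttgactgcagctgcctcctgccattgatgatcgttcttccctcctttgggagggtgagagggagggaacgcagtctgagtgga
Rnu3b2 and Rnu3b4 had 344 counts each in replicate 1 and 0.03 each in replicate 2. Rnu3b1 and Rnu3b3 had 0 counts in replicate 1 and 960 and 954 in replicate 2. None of the 4 therefore met the minimum in both libraries, although each held over 300 counts in 1 of them. Summed over the 4 copies the level was 24.4 CPM in replicate 1 and 22.8 CPM in replicate 2, and with Rnu3a the 5 U3 genes summed to 43.4 and 37.4 CPM (40.4 ± 4.19, SD, n = 2). The summed levels of the 4 copies had a log2 ratio of -0.10 between libraries.

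Every scaRNA member is given here, since they carried 21.8% of the members' counts in replicate 1 and 33.4% in replicate 2. Scarna10, in an intron of the condensin gene Ncapd2 and known in human to guide modification of the U5 spliceosomal RNA, had 10754 and 28839 counts, or 1219 and 1166 TPM. Scarna2, which has no host on its strand, had 4786 and 20833 counts, or 313 and 503 TPM. Scarna13, inside Snhg10, had 2728 and 8931 counts, and Gm22767, inside Ppp1r8, had 2888 and 8395. These are 96.9 and 106 CPM for Scarna13 and 103 and 99.9 CPM for Gm22767, and the libraries differed little in either. Gm22009 in Kpna4 had 1175 and 2618 counts, Gm26083 in Snhg20 527 and 3433, and Scarna6 in Atg16l1 443 and 1689. Gm25395, also in Atg16l1, had 334 and 715 counts, Gm25492 in Bud23 242 and 862, and Gm23751 in Chd4 46 and 202. Gm26083 was the only one of the 10 that differed at least 2-fold between libraries, with 18.7 CPM in replicate 1 against 40.9 in replicate 2.

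The libraries ranked the members in much the same order, with larger differences in level than among all genes. Spearman's rho of CPM between libraries was 0.931 over 82 genes, which share the 2 libraries and are not independent. The median log2 ratio of TMM-scaled counts, replicate 2 over replicate 1, was -0.16 over members, with quartiles of -0.69 and 0.64. Over all 13296 genes with the same count minimum the median was -0.0016 and the quartiles were -0.26 and 0.26. Of the members, 11 were at least 2-fold higher in replicate 2, or 13.4%, against 5.05% of those 13296 genes. Another 14 members were at least 2-fold lower in replicate 2, or 17.1%, against 6.10% of those genes. Other genes with a model under 500 nt and the same minimum also differed more often, with 9.47% higher and 12.1% lower of 412. With a mean of at least 50 counts, 11 of 70 members were higher and 9 were lower, against 5.17% and 3.67% of 12480 genes. By length, the median log2 ratio was 0.26 over 54 members of 120 to 150 nt and -0.32 over 21 longer ones, both with TPM above 0 in each library. The effective length of these classes was higher in replicate 2 by a median log2 of 0.45 and 0.29. Of the 6 members under 120 nt, Gm23734, Snord14d, Snord21 and Snord14c were at log2 ratios of -2.53 to -1.75, Snord60 was at 0.12 and Snord87 at 0.18. No test was made of these values, and the part of fragment size, depth and source animals in them was not tested.

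**Figure D3:**
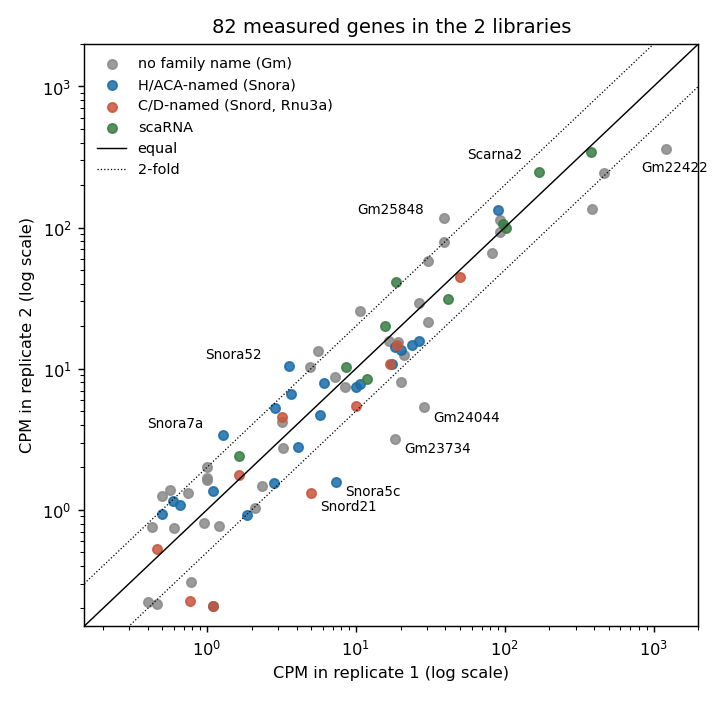
CPM of the 82 members in replicate 1 (horizontal) and replicate 2 (vertical), both on log scales, coloured by named type, with a solid line of equality and dotted lines at a 2-fold difference. The points follow the line over more than 3 orders of magnitude, with 11 members on or above the upper dotted line and 14 on or below the lower one.

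Among members with a mean of at least 50 counts, the 5 of highest ratio in replicate 2 were led by Gm25848, inside the ubiquitin ligase gene Fbxo45, with 117 CPM in replicate 2 and 39.0 in replicate 1, a 3.02-fold ratio of scaled counts. Snora52, in the ribosomal protein gene Rplp2, had 10.4 CPM in replicate 2 and 3.54 in replicate 1. Snora7a in Rpl32 had 3.37 and 1.28 CPM in replicates 2 and 1. Gm22620 in Taf1d had 1.26 and 0.497 CPM, and Gm22362 in Ybx3 had 1.38 and 0.568 CPM, in the same order. At the other end, Gm23734, inside the glycosyltransferase gene Mgat5, had 3.18 CPM in replicate 2 and 18.4 in replicate 1. Its scaled counts were 5.76-fold lower in replicate 2. Gm24044 in Rpsa had 5.34 CPM in replicate 2 and 28.7 in replicate 1, and Snora5c in Tbrg4 had 1.58 in replicate 2 and 7.41 in replicate 1. Snord21 had 1.32 CPM in replicate 2 and 5.04 in replicate 1. The fifth of these was Gm22422. Below that mean, Snora44 and Snord14d, each with 31.0 and 17.5 counts in replicates 1 and 2, were 4.96-fold lower in scaled counts in replicate 2. By type, at least 2-fold higher and lower in replicate 2 were 2 and 3 of 23 H/ACA-named members, 0 and 3 of 10 C/D-named members, 1 and 0 of 10 scaRNAs, and 8 and 8 of 39 Gm members. With 10 members in a type, a count of 0 or 1 is close to the shares of all genes given above.

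The deposited TPM intervals, whose level was not stated, can be compared for 76 members with TPM above 0 in both libraries. They did not overlap for 54 of these members. In replicate 2, 18 of the 76 were higher, or 23.7%, against 46.6% of 13289 genes with the minimum and TPM above 0. Another 36 were lower, or 47.4%, against 16.0% of those genes. For Gm22422 the interval was 117691 to 119935 TPM in replicate 1 and 30059 to 30723 in replicate 2. For Gm25835 it was 6166 to 6649 TPM in replicate 1 and 5531 to 5779 in replicate 2, although its CPM was 92.6 and 93.5. Each interval comes from 1 library and leaves out the spread between libraries. In replicate 1 the deposited TPM of Gm22422, 120832, and that of Gm23245 lay above their own intervals, and the other 74 lay inside, as did all 76 in replicate 2. The median log2 TPM ratio of these 76 members was -0.18, against 0.20 over the 13289 genes.

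Nearly all members lay inside another gene. A host on the same strand held 76 of 82 members, or 92.7%, against 600 of the 1443 other snoRNA and scaRNA models in the tables, or 41.6%. All 76 lay in an intron of at least 1 host transcript, and 36 of them also overlapped an exon of some other transcript of the host. For those 36, reads of the host transcript and of the small RNA can share bases. The 6 members with no such host were Scarna2, Rnu3a, Snora57, Snora17 and both models named Snora43. Host genes that encode ribosomal proteins held 16 members, or 19.5%, against 40 other models, or 2.77%. They include Rpsa with 3 members, and Rps3 and Rpl5 with 2 each. A further 11 members lay in long noncoding host genes of the Snhg series.

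Members with boxes C and D lay close to the next exon of the host. The distance from their 3′ end to that exon had a median of 84 nt over 15 members, with 10 of them within 100 nt. Among the 164 other models with these boxes that lie in an intron, 28.0% were within 100 nt and the median was 576 nt. Members with an ACA end lay at a median of 260 nt over 48 in an intron, with 11 within 100 nt, against a median of 1591 nt over 99 other such models. Snord17 in Snx5, at 3954 nt, and Gm23734, at 7681 nt, were the 2 most distant members with boxes C and D.

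**Figure D4:**
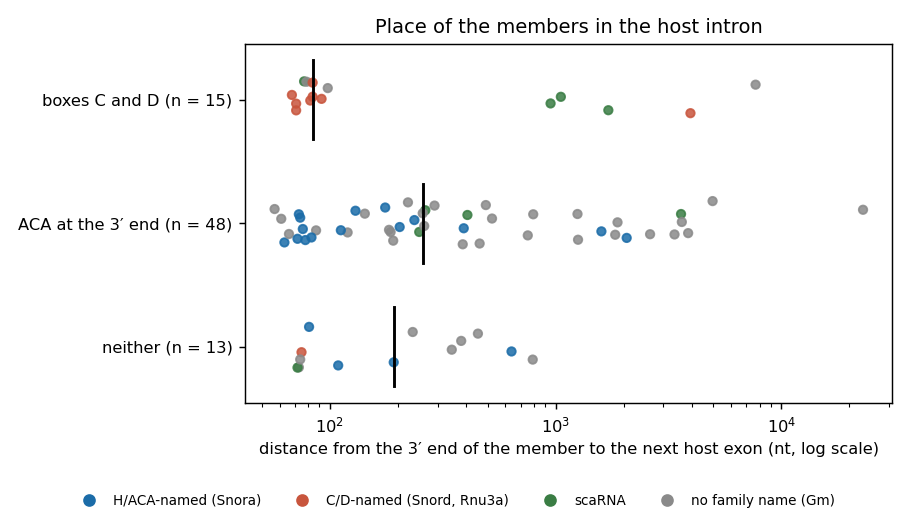
Distance in nt, on a log scale, from the 3′ end of each member to the next exon of its host, in rows by the end letters found, with points coloured by named type and a black bar at the median. Most members with boxes C and D sit between 68 and 100 nt, while those with an ACA end spread from 57 to 22966 nt.

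The hosts were expressed, but member and host levels did not rank alike. Of 59 different hosts in the tables, 58 were at 1 TPM or more in both libraries, with a median of 55.8 TPM. Over 72 members with a host in the tables, Spearman's rho of member CPM with host TPM was -0.01. Points that share a host are not independent. Trmt10c, the host of Gm22422, was at 11.7 ± 1.73 TPM (SD, n = 2), while Rpl32, the host of Snora7a, was at 1519 TPM and that member at 2.32 ± 1.48 CPM. Gm22422 had 34334 and 30337 counts against 2216 and 7022 for all of Trmt10c. Gm22767, Scarna10 and Gm26083 also had more counts than their hosts in both libraries. Scarna10 and Gm26083 overlap an exon of some host transcript and their counts were not whole, and their split from the host was not checked here. The deposited posterior SD was 0.125% and 0.501% of the posterior mean count for Scarna10, and 0.389% and 0.185% for Gm26083. Of 59 hosts, 1 differed at least 2-fold between libraries, namely Epb41l4aos, the host of Gm23639. Over the 13296 genes with the same count minimum, 5.05% were at least 2-fold higher in replicate 2 and 6.10% were at least 2-fold lower. The rho of member ratio with host ratio over 72 members was 0.12.

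Members of the same host give this within 1 host gene, in 11 hosts with 24 members. Whether such members lie in introns of the same transcript was not checked. The sharpest case was Taf1d, which encodes a factor of RNA polymerase I and held 3 members of 131 to 137 nt. Gm25791 had 593 and 1052 counts, Gm22620 had 14 and 106, and Gm24455 had 12 and 63. Gm25791 was thus 49.4 and 16.7 times higher in CPM than Gm24455. In Snhg12, Snora16a had 81 and 443 counts and Snora44 had 31.0 and 17.5, a ratio of 2.62 in replicate 1 and of 25.3 in replicate 2. In Rps3, Snord15b, a copy of U15, had 481 and 904 counts and Snord15a 90 and 383. In Rpsa, Snora62 had 752 and 1316 counts, Gm24044 had 809 and 449, and Gm26448 had 471 and 1328, so their order differed between libraries. In Snx5, Snord17 had 1416 and 3768 counts and Gm26165 had 543 and 1301. In Eif4a2, Snora81 had 669 and 1237 counts and Gm26447 had 237 and 620. In TPM the order within both hosts turned: Snord17 was at 0.242 and 0.310 times Gm26165, and Snora81 at 0.559 and 0.427 times Gm26447.

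**Figure D5:**
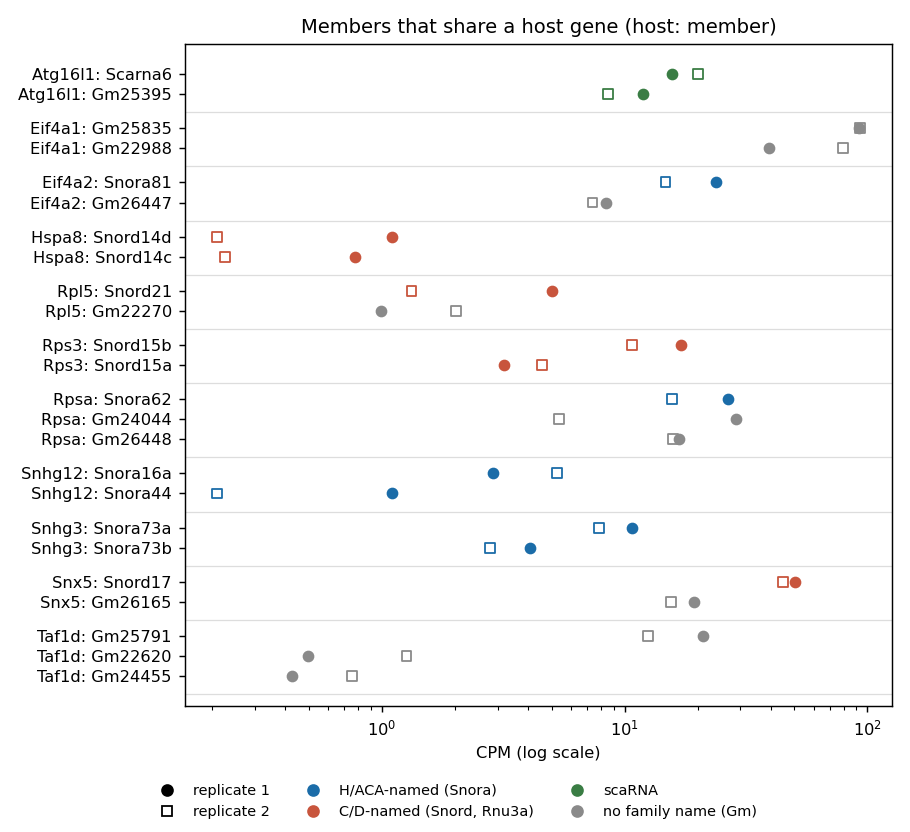
CPM, on a log scale, of the 24 members that share a host gene, in rows labelled host and member, with filled circles for replicate 1, open squares for replicate 2 and colour for the named type. The 3 members of Taf1d span more than 10-fold in each library, while Gm25835 and Gm22988 of Eif4a1 lie close together in replicate 2.

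Eif4a1, which encodes an RNA helicase of translation initiation, holds 1 member of each class within a stretch of chromosome 11. Gm25835 at chr11:69668852-69668995 on the minus strand has boxes C and D, in capitals, and Gm22988 at chr11:69669635-69669778 on the same strand has the ACA end, in capitals. Gm25291, inside Sec24a at chr11:51737779-51737922, is 97.2% identical to Gm22988 and is given with the bases that differ from it in capitals.
Gm25835: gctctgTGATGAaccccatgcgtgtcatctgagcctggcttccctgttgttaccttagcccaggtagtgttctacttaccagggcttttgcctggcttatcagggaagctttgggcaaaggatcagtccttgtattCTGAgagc
Gm22988: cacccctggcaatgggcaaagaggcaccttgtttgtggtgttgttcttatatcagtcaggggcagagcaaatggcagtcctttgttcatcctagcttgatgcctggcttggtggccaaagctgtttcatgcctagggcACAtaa
Gm25291: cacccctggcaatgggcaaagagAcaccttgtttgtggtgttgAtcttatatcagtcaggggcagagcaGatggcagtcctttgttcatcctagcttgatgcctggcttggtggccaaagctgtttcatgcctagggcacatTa
Gm25835 had 2608 and 7857 counts, or 92.6 and 93.5 CPM, the closest agreement between libraries among the 10 members of highest CPM. Gm22988 had 1102 and 6676 counts, or 39.1 and 79.4 CPM. The relative Gm25291 had 21.01 and 110.3 counts, so Gm22988 was 52.5 and 60.5 times higher in CPM. Neither Gm22988 nor Gm25291 had whole counts in both libraries, so some of their reads were divided with other genes, which were not identified. The deposited posterior SD was 0.145% and 0.0445% of the posterior mean count for Gm22988, and 0.428% and 0.517% for Gm25291. It belongs to the deposited estimate, and the split was not checked here.

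Of all pairs of members, 13 were at least 70% identical end to end. In both libraries, 5 of these pairs were at least 10-fold apart in CPM and 4 were under 3-fold apart. The 5 include the long and short Snora43 models, which lie at the same place and are described below. They also include every pair among Gm22422, Gm26165 and Gm22362, so they are not independent. The 4 close pairs were Snord14d with Snord14c, Snora73a with Snora73b, Snora73a with Gm26448, and Gm25848 with Gm25776. Gm26165 and Gm22362 belong with Gm22422, and are given here with bases that differ from Gm22422 in capitals. Bases of Gm22422 that they lack are not shown.
Gm26165: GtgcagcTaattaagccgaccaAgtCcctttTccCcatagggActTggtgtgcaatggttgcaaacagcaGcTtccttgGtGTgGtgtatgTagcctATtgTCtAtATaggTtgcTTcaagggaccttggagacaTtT
Gm22362: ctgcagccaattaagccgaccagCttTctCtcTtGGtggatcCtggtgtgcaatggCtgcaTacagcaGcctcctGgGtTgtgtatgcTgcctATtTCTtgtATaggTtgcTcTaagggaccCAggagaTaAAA
Gm22422 and Gm26165 were 79.0% identical, and Gm22422 and Gm22362 were 76.3% identical. Gm22422 was 63.2 and 23.3 times higher in CPM than Gm26165, and 2146 and 262 times higher than Gm22362. All 3 had whole counts in both libraries. Among all models, a further relative of Gm22422, Snora70, had 9.92 and 97.7 counts and lay just outside the minimum.
Snora73a, Snora73b and Gm26448 of Rpsa form another set. Snora73b, at chr4:132352322-132352526, is given with the bases that differ from Snora73a, at chr4:132352775-132352979, in capitals, and Snora73a with its ACA end in capitals.
Snora73a: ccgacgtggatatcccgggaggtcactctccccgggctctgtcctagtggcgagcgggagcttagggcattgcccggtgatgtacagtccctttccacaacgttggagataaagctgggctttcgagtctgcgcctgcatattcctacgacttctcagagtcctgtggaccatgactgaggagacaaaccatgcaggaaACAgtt
Snora73b: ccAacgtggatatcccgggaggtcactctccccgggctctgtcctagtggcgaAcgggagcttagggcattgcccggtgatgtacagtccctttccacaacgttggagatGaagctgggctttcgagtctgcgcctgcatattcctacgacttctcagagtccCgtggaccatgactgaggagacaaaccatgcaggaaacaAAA
They were 96.6% identical, and Gm26448 was 88.3% identical to Snora73a with 471 and 1328 counts. Gm25848 and Gm25776 in Gtf2a1 were 89.6% identical, and both were higher in replicate 2, with 117 and 39.0 CPM for Gm25848 and 58.3 and 30.5 CPM for Gm25776 in replicates 2 and 1. Over all members, 55 had whole counts in both libraries, within 0.005 of a whole number, and 27 did not.

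A single member is not the RNA its name gives. A model named Snora43 had 569 and 1139 counts, but the deposited tables list it at 1700 nt in replicate 1, while its M21 sequence is 139 nt. Its counts belong to the longer model. A second Snora43 model, of 127 nt at the same place, had 18.7 and 90.4 counts. The deposited length equalled that of the M21 sequence for 80 of 82 members, and Snora17, with 16.6 and 97.3 counts, was the other exception.

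Just inside it, by the lower of the 2 counts, were Gm24411 with 11.4 and 18.6 counts, Gm24455 with 12 and 63, Gm26225 with 13 and 18, Snord87 with 13 and 44, and Gm22620 with 14 and 106. Just outside were Snora70, Gm24616 with 9 and 129 counts, Snora68 with 8 and 17, Gm25394 with 22 and 7, and Scarna17 with 6 and 10. In all, 33 models outside the minimum had at least 10 counts in only 1 library, 24 of them in the deeper replicate 2. Among all models, 1387 of 1525 had 0 counts in both libraries, the 17 Snord116 models among them, all with an effective length of 0.

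Counts were present for every gene of the protein lists that was matched by symbol. Matched symbols were 4 of 4 for box C/D core proteins, 4 of 4 for H/ACA core proteins and 11 of 12 for assembly factors. They were 4 of 5 for Cajal body proteins and 3 of 5 for end-processing factors. An unmatched symbol can be another name of a gene and does not stand for a protein without counts. The box C/D core proteins Fbl, Nop56, Nop58 and Snu13 were at 40.2 to 419 TPM in replicate 1 and 48.8 to 454 TPM in replicate 2, with Nop58 the highest of them. The H/ACA core proteins Dkc1, the pseudouridine synthase, and Nop10, Nhp2 and Gar1 were at 5.83 to 92.2 TPM in replicate 1 and 12.0 to 108 TPM in replicate 2, with Gar1 the lowest. All 11 assembly factors matched, Naf1, Shq1 and Nolc1 among them, were above 1 TPM in both libraries, with a median of 8.87 ± 1.83 TPM. All 3 end-processing factors matched, Parn, Exosc10 and Dbr1, were at 10.5 to 12.5 TPM in replicate 1. Of the Cajal body proteins, Coil was at 2.72 and 2.90 TPM. Wrap53, which binds scaRNAs, had 79 and 583 counts, or 1.05 and 1.77 TPM. In scaled counts, Wrap53 differed at least 2-fold between libraries, as did the host RNA Epb41l4aos with 612 and 730 counts. No other gene of these lists did so on that scale. The host RNA Gas5 was at 450 and 486 TPM, and Meg3 and Rian, hosts of imprinted snoRNA clusters, had 0 counts.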

How the data were processed

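Total RNA of common myeloid progenitors was sequenced in 2 libraries of 1 group. For each library the authors deposited gene and transcript tables made on mm10 and GENCODE M4, per the readmes. Which aligner and which quantifier were used is not given in the sources used here. Deposited expected counts and posterior mean counts are estimates of reads per gene that need not be whole. TPM, posterior mean TPM and FPKM were deposited in the same tables and scaled by the authors to effective length. TPM interval bounds and posterior SDs of counts, treated as scores, were deposited too, with no stated level.

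Names, biotypes, hosts, coordinates and sequences were those of GENCODE M21, built on GRCm38, which is mm10, joined by Ensembl ID without version. A host was another gene, not a snoRNA or scaRNA, that held the whole model on the same strand, and the smallest such gene in the tables was named. CPM used the total over Ensembl genes, which was 28158803 in replicate 1 and 84041054 in replicate 2. Library ratios used counts rounded to whole numbers, TMM in edgeR 4.0.16 and a prior count of 0.5, in R 4.3.3. DESeq2 1.42.0 size factors were an alternative. The ratio step was tested on simulated data. Identity was 100% less the edit distance over the longer sequence, in edlib 1.3.9.post1 with Python 3.11.15.

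The members, the lists and the rule for named genes were chosen with earlier results of these data known. The rule named every scaRNA member, the snoRNAs of pre-ribosomal RNA processing, the 10 highest members by mean TPM and by mean CPM, the 5 largest and smallest library ratios at a mean count of at least 50, 3 high and 2 low members per named type, 5 models on each side of the minimum, members that share a host, hosts and list genes. Not all of these are printed. U3 copies outside the minimum and sequence relatives were described after their values were seen. Intervals and limits cover counting error only, since reads had no molecular identifiers.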

Additional observations from a re-analysis of the deposited data

How the results depend on the processing

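Of 72 alternatives tried for 10 results, 62 kept the value within its spread (1 SD over the 2 libraries), within 1.5 times for counts, or within 0.1 on the log2 scale for ratios. For shares and median TPM, leaving a library out was all but bound to be kept, since either of 2 values lies within 1 SD of their mean. Those entries show no stability. The SD of the TPM share, 8.64, is also wide, so its fall to 10.9% without Gm22422 was labelled as kept. The number of members was 58 to 106 under other count minimums, columns or a mean rule, and 91 to 106 with each library left out and the minimum applied to the other. Without genes of effective length under 10 nt the share of TPM fell to 1.94%, and by CPM per kb of full length, an alternative added after seeing the data, it was 2.30%. Without Gm22422, also added, it was 10.9%. With each library left out the share of TPM was 12.5 to 24.6%, and the share of counts 0.277 to 0.393%. A count minimum of 50 moved the median log2 ratio of scaled counts to -0.30, that of TPM to -0.41, and the number of members differing at least 2-fold to 16, since it left 58 members. The median log2 TPM ratio was -0.41 with FPKM and -0.32 without genes of effective length under 10 nt. FPKM is on another scale, with medians of 583 for H/ACA-named members, 230.3 for C/D-named members and 1053 for scaRNAs. With each library left out, the median TPM was 184 to 274 for H/ACA-named, 85.1 to 97.3 for C/D-named members and 325 to 529 for scaRNAs. The C/D-named median is no measure of level, and its range none of stability, since 5 of those 10 members are at a TPM of 0 through their effective length. The cause of the other shifts was not tested. Library ratios cannot be formed with 1 library left out. No paired analysis was possible because there is 1 group. Depth limits the lowest members: a minimum of 10 counts stands against the 3 counts that a count of 0 allows.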

Other observations

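Snora44 in Snhg12 and Snord14d in Hspa8, which share neither host nor chromosome, had nearly the same expected counts, 30.95 for each in replicate 1 and 17.52 and 17.54 in replicate 2. The counts of both were not whole. Several H/ACA-named models were seen in replicate 2 alone: Snora15 had 0 counts in replicate 1 and 150 in replicate 2, Snora47 had 0 and 78, and Snora34 had 0 and 52. Of 56 models with counts that fell short of the minimum, 9 reached it in replicate 1 only, among them Snord23 with 25 counts there and 0 in the deeper replicate 2, and Snord47 with 17 and 0. Gm25989, of 133 nt, had 2 counts in replicate 1 and 179 in replicate 2.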
